A study of Caenorhabditis elegans with 12 samples.

Results

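Glutamate transmission genes are described here by where the ETS-5 ChIP-seq windows lie around them in the nematode Caenorhabditis elegans. The 9 genes are eat-4 and 8 glutamate receptor genes (glr-1, glr-2, nmr-1, nmr-2, mgl-1, mgl-2, avr-14 and glc-3), chosen by name and function out of 19971 protein-coding genes. For each gene, windows were counted inside the gene span, within 2000 bp of it and within 10000 bp of it. The series holds 12 whole-worm samples, 3 in each of 4 groups. An input and a precipitate made with a GFP antibody (ab290) were prepared from the wild-type strain N2 and from FQ237, the strain that carries ETS-5 tagged with GFP. The lists of the 3 FQ237 precipitates were used here, and the other 9 samples were not analysed here, so no difference from wild type or from input was computed. The labels do not state the promoter of the tagged protein or the age of the worms. They also do not tie replicates to independent cultures, and differences between lists may be technical only.

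Glutamate is one of the fast transmitters of the worm's nervous system, beside acetylcholine and GABA. The vesicular transporter EAT-4 loads it into synaptic vesicles, and neurons that make EAT-4 are counted as glutamatergic, the gas-sensing BAG neurons among them. Released glutamate opens cation channels of the AMPA and kainate class (GLR proteins) and of the NMDA class (NMR proteins), opens chloride channels of a kind found in invertebrates (AVR and GLC proteins), and acts on G protein-coupled receptors (MGL proteins). ETS-5 belongs to the ETS family of transcription factors and is known for its role in BAG neurons, which are a small part of all cells in a whole-worm extract.

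The lists held 3811, 2915 and 3697 windows in replicates 1, 2 and 3 (3474 ± 488, SD, n = 3). Each window is 400 bp wide and carries no count, height or p-value, so the depth behind it is unknown. The order of lines is given below as a place in the list, without knowledge of what the order stands for. A window was placed by its centre, and distances run from that centre to the nearer end of the gene in a RefSeq gene table. No source used here states the genome build of the windows. The table carries no strand, so sides of a gene are called lower or higher by coordinate, and upstream cannot be told from downstream.

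The transporter gene eat-4 had no ETS-5 window inside it, within 2000 bp or within 10000 bp in any of the 3 lists, while the metabotropic receptor gene mgl-1 had a window inside it in all 3. Of the 9 genes, 1 (mgl-1) had a window inside the gene in all 3 replicates, 1 (mgl-1) had one within 2000 bp in all 3, and 3 (nmr-2, mgl-1 and avr-14) had one within 10000 bp in all 3. Over all protein-coding genes the shares were 2.62%, 9.64% and 29.7%, against 11.1%, 11.1% and 33.3% of the 9. The 9 genes are long, with spans from 4.44 to 8.25 kb and a median of 6.08 kb, against a median of 2.01 kb over all protein-coding genes. Among the 2353 protein-coding genes with spans in that range, the shares with a window in all 3 replicates were 5.57%, 15.7% and 37.2%. At 2000 and 10000 bp the 9 genes were thus close to the background, and the share inside genes rests on mgl-1 alone.

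**Figure D1:**
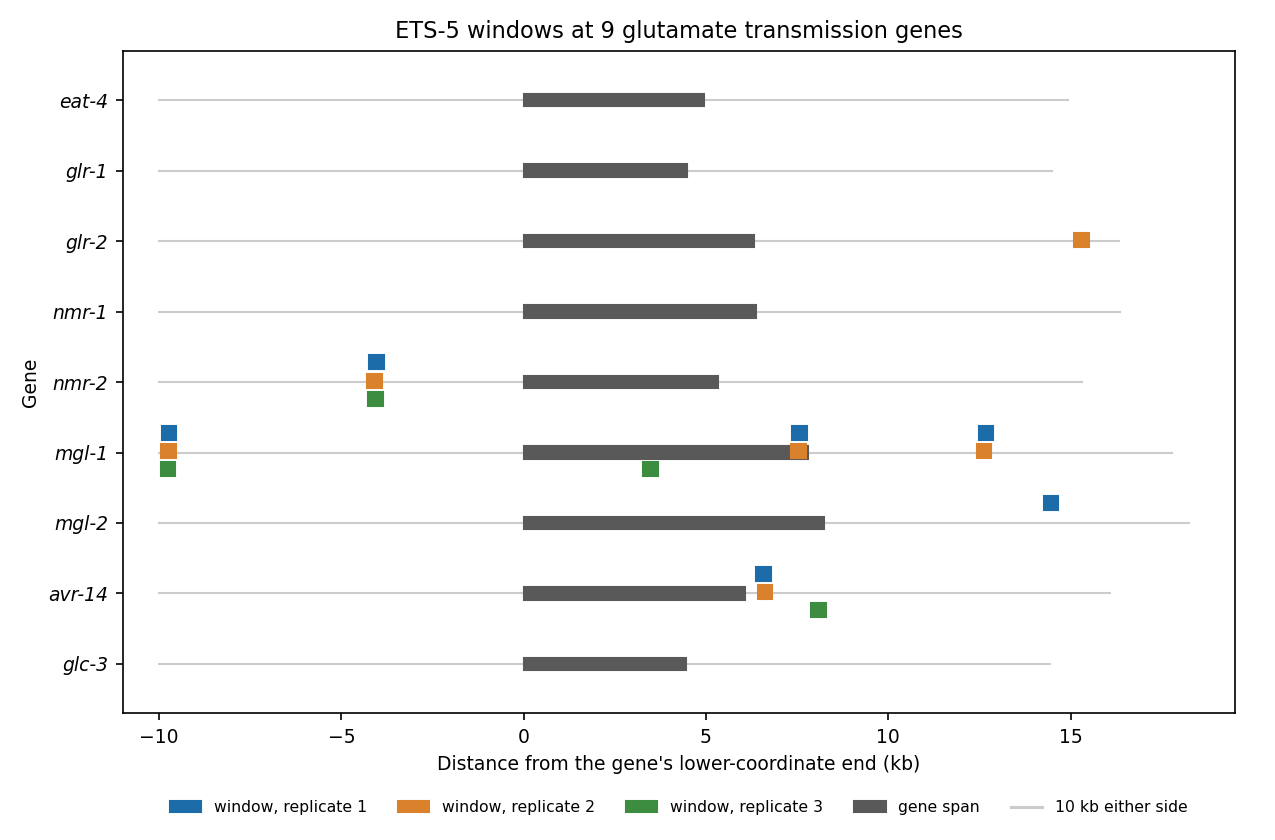
Positions of the 400 bp ETS-5 windows from 10 kb before to 10 kb after each of the 9 genes, with the horizontal axis in kb from the gene's lower-coordinate end, grey bars for gene spans and 1 colour per replicate. The 3 lists coincide at nmr-2 and at the lower side of mgl-1, and the rows of eat-4, glr-1, nmr-1 and glc-3 hold no window.

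With a window in at least 1 replicate as the measure, 1 of the 9 genes had one inside the gene (background 7.13%), 2 had one within 2000 bp (background 23.8%) and 5 had one within 10000 bp (background 55.9%). Among genes of the same span range the background was 15.3%, 36.5% and 66.6%. In single lists, 4, 4 and 3 of the 9 genes had a window within 10000 bp in replicates 1, 2 and 3, against 44.5%, 38.6% and 44.6% of all protein-coding genes. The mean number of windows within 10000 bp was 0.593 ± 0.128 per gene for the 9 genes (SD, n = 3 lists), against 0.696 ± 0.095 over all protein-coding genes and 0.893 ± 0.128 over those of the same span range. The median over genes of the number of windows in the 3 lists together was 1 for the 9 genes, 1 for all protein-coding genes and 2 for the same span range.

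**Figure D2:**
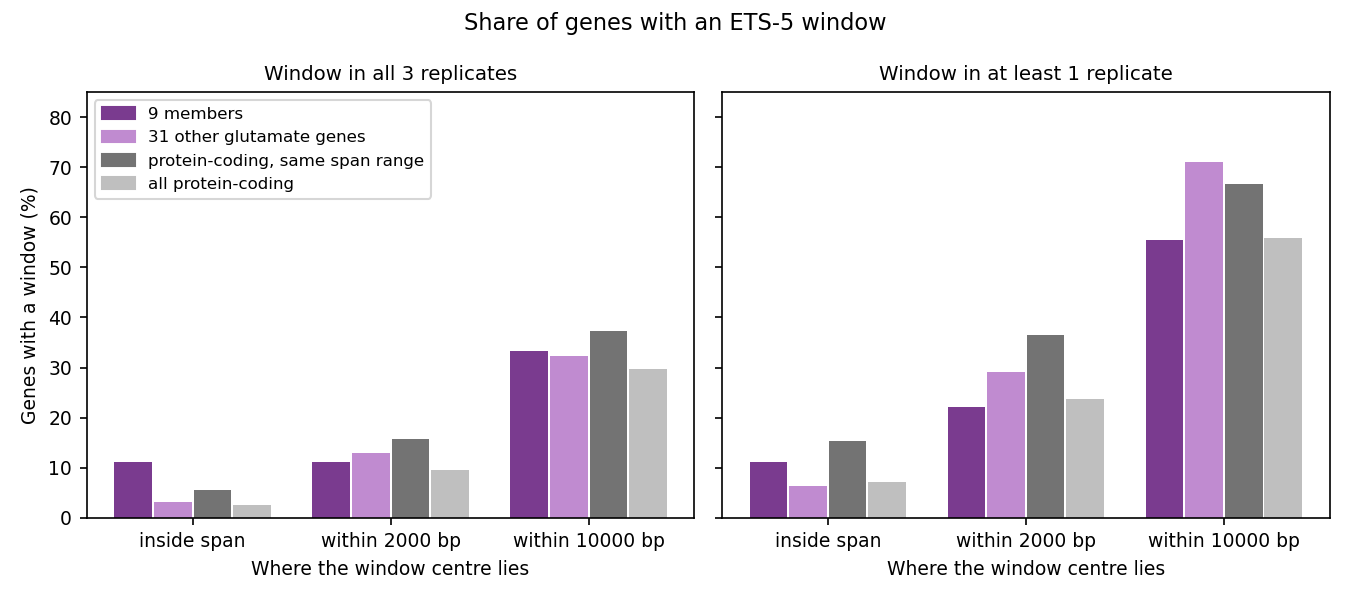
Percentage of genes with an ETS-5 window (vertical axis, bars from 0) at 3 distances, in all 3 replicates on the left and in at least 1 replicate on the right, for the 9 genes, 31 other glutamate genes, protein-coding genes of the same span range and all protein-coding genes. Within 10000 bp in all 3 replicates the bars stand at 33.3%, 32.3%, 37.2% and 29.7%.

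The gene eat-4, on chromosome III, lay far from any window. Its nearest window was 49.31 kb away in replicate 1, 49.53 kb in replicate 2 and 76.04 kb in replicate 3, on the higher side in each list. Over all protein-coding genes the median distance to the nearest window was 11.998, 14.93 and 12.06 kb in replicates 1, 2 and 3, so eat-4 lay beyond the upper quartile (26.9, 32.3 and 26.6 kb) in every list. Taking the nearest window of any list, 4.63% of all protein-coding genes and 1.17% of the 2642 on chromosome III lay farther from a window than eat-4 did. The chloride channel gene glc-1, of the further glutamate genes counted below, also lay farther, at 50.19 kb.

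The window nearest to eat-4 in replicate 1 spanned 9190935 to 9191334, and that in replicate 2 spanned 9191160 to 9191559, so they overlapped, inside the gene ZC84.7. They stood late in the lists, at line 3481 of 3811 and line 2664 of 2915. The window of replicate 3 was a different one, at 9217662 to 9218061 and line 3337 of 3697, with npr-29 as its nearest protein-coding gene.

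On the lower side of eat-4 the nearest window lay 82.93, 82.92 and 82.92 kb away in the 3 lists. The gene thus sits in a stretch of 137.2 kb without any window centre from the 3 lists together, which holds 31 protein-coding genes. Of the 1638 stretches between neighbouring window centres of the pooled lists on chromosome III, 3 were at least that long. These 3 make up 3.29% of the chromosome. Pooling adds short stretches between windows of different lists, and the median stretch was 0.84 kb. In single lists, the stretch around eat-4 measured 137.2, 137.4 and 163.9 kb in replicates 1, 2 and 3. At least as long were 10 of 577, 11 of 454 and 4 of 627 stretches. On the same chromosome, the stretch around glr-1 measured 70.2, 165.7 and 163.3 kb and that around glr-2 114.3, 112.4 and 170.6 kb. That of glr-1 was thus longer than that of eat-4 in replicate 2, and that of glr-2 in replicate 3. Both were shorter in the other lists. At the chromosome's average density, an interval the size of eat-4 with 10000 bp on both sides would hold 3.01 windows over the 3 lists, where 0 were listed. The lists share regions, so the same region can count in more than 1 list. Among all protein-coding genes the median of this count was 1, and 44.1% had no window within 10000 bp. A missing window means that the authors' list holds none there. Neither the reads nor the mappability of the stretch were examined, and their part in the missing windows was not tested.

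The AMPA-type subunit genes glr-1 and glr-2, also on chromosome III, encode channel subunits known from the interneurons that drive locomotion. The gene glr-1 had no window within 10000 bp in any list. Its nearest window lay 10.58 kb away in replicate 1, 68.95 kb in replicate 2 and 68.92 kb in replicate 3, so the lists disagreed. The window of replicate 1 is held by that list alone, at 8599026 to 8599425 and line 2836 of 3811, with ztf-30 as its nearest protein-coding gene. In the other lists the nearest window was the one inside pac-1 on the lower side, a region that all 3 lists hold, at line 172 of 2915 in replicate 2 and line 1152 of 3697 in replicate 3.

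The gene glr-2 had 1 window within 10000 bp, in replicate 2, and none in replicates 1 and 3. That window, at 7153735 to 7154134, lay 8.98 kb away on the higher side, at line 2579 of 2915, and was 0.14 kb from ogt-1, which encodes an enzyme that attaches sugar residues to proteins. Just beyond the 10000 bp limit, the nearest windows of replicates 1 and 3 lay 10.88 and 10.91 kb from glr-2. They belong to a region of 434 bp held by all 3 lists and lay 0.18 and 0.16 kb from nuo-4, a gene of mitochondrial complex I, at line 443 of 3811 and line 258 of 3697. With a limit of 20000 bp, glr-2 would join the genes with a window in all 3 replicates.

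The NMDA-type subunit genes nmr-1 and nmr-2 differed from each other. The gene nmr-1, on chromosome II, had no window within 10000 bp. Its nearest windows lay 34.54 and 34.53 kb away in replicates 1 and 2, at a site inside cal-8 that both lists hold, and 14.58 kb away in replicate 3, at line 3397 of 3697. The stretch of the pooled lists without a window centre around nmr-1 measured 73.8 kb. On chromosome II, 33 of 1591 such stretches were at least as long, and they make up 24.2% of the chromosome. In single lists, 32 of 567, 30 of 442 and 36 of 592 stretches were at least as long as that around nmr-1. Of the genes on chromosome II, 32.7% lay farther from a window of any list.

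The gene nmr-2, on chromosome V, had exactly 1 window within 10000 bp in each list and none within 2000 bp. The windows lay 4.04, 4.09 and 4.07 kb from the gene in replicates 1, 2 and 3, on the lower side, at 15002099 to 15002498, 15002050 to 15002449 and 15002070 to 15002469. Their starts differed by 49 bp at most, so the 3 lists mark a single region. It lay nearer to another gene, 0.19, 0.14 and 0.16 kb from fib-1, which encodes the nucleolar protein fibrillarin. Its place was line 2171 of 3811, line 1460 of 2915 and line 327 of 3697, so it stood much earlier in replicate 3 than in the other lists. When a window was counted only for its nearest protein-coding gene, nmr-2 had none.

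The metabotropic receptor genes mgl-1 and mgl-2 encode G protein-coupled receptors for glutamate. The gene mgl-1, on chromosome X, was the only one of the 9 with a window inside the gene, with 1 in each list. In replicates 1 and 2 the windows lay at 9975879 to 9976278 and 9975856 to 9976255, overlapping by 377 bp, with their centres 0.23 and 0.25 kb inside the gene's higher end. These centres also fall in ZC506.8 and ZC506.9, non-coding RNA genes of the table, so the windows cannot be given to mgl-1 alone. The window of replicate 3 lay elsewhere in the gene, at 9971801 to 9972200, with its centre 3.48 kb from the lower end and 4.3 kb from the higher end. It overlapped no window of the other lists and lay 4.05 kb from the nearer of them. The 3 lists thus agree that mgl-1 holds a window but not on where.

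The windows inside mgl-1 stood at line 1869 of 3811 in replicate 1, line 1276 of 2915 in replicate 2 and line 2815 of 3697 in replicate 3. Within 10000 bp of mgl-1 lay 3, 3 and 2 windows (2.67 ± 0.577, SD, n = 3), or 8 over the 3 lists, where the average density of chromosome X gives 3.43 for an interval of that length. As many windows or more were listed for 5.46% of all protein-coding genes, for 8.03% of those of the same span range and for 8.35% of those on chromosome X.

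The best agreement around mgl-1 was at its far lower side. Windows of the 3 lists lay 9.73, 9.75 and 9.76 kb from the gene in replicates 1, 2 and 3, just inside the 10000 bp limit, with starts within 27 bp of one another. They lay 0.18, 0.2 and 0.2 kb from ZC506.1, their nearest protein-coding gene, and stood early, at line 580 of 3811, line 256 of 2915 and line 449 of 3697. On the higher side, replicates 1 and 2 held overlapping windows 4.9 and 4.84 kb away, at line 2437 of 3811 and line 2094 of 2915, nearest to the protein-coding gene F19C6.5, and replicate 3 held none.

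The gene mgl-2, on chromosome I, had a window within 10000 bp in replicate 1 and in no other list. It lay 6.22 kb away on the higher side, at 10397409 to 10397808 and line 2725 of 3811, with its nearest protein-coding gene being cup-2, of the derlin family that acts in protein quality control. The nearest windows of replicates 2 and 3 lay 55.23 and 23.76 kb away, on opposite sides of the gene. The lists thus did not share a nearest site at mgl-2.

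The glutamate-gated chloride channel genes are avr-14, whose product is a target of the drug ivermectin, and glc-3. The gene avr-14, on chromosome I, had its windows on the higher side, at 5973627 to 5974026 in replicate 1, 5973666 to 5974065 in replicate 2 and 5975139 to 5975538 in replicate 3. The first pair overlapped by 361 bp and lay 0.5 and 0.54 kb from the gene, while the window of replicate 3 overlapped neither and lay 2.01 kb away, just outside the 2000 bp limit. For all 3 windows avr-14 was the nearest protein-coding gene. They stood late, at line 2937 of 3811, line 2059 of 2915 and line 2830 of 3697. Because of those last few bases, avr-14 counts within 2000 bp in 2 lists, and a shift of the windows by 100 bp to the left brings it to all 3.

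The gene glc-3, on chromosome V, had no window within 10000 bp. Its nearest windows lay 24.24 kb away in replicate 1, 24.46 kb in replicate 2 and 51.53 kb in replicate 3, all on the higher side. On the lower side the nearest window was 156.26 kb away in each list. The stretch of the pooled lists without a window centre around glc-3 measured 184.9 kb, the longest among the 4 genes without a window within 10000 bp. On chromosome V, 8 of 1664 such stretches were at least as long, and they make up 8.45% of the chromosome. In single lists, 18 of 621, 18 of 481 and 8 of 577 stretches were at least as long as that around glc-3. Chromosome V was the chromosome with the fewest windows per length, with 2.97, 2.3 and 2.76 windows per 100 kb in replicates 1, 2 and 3.

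**Figure D3:**
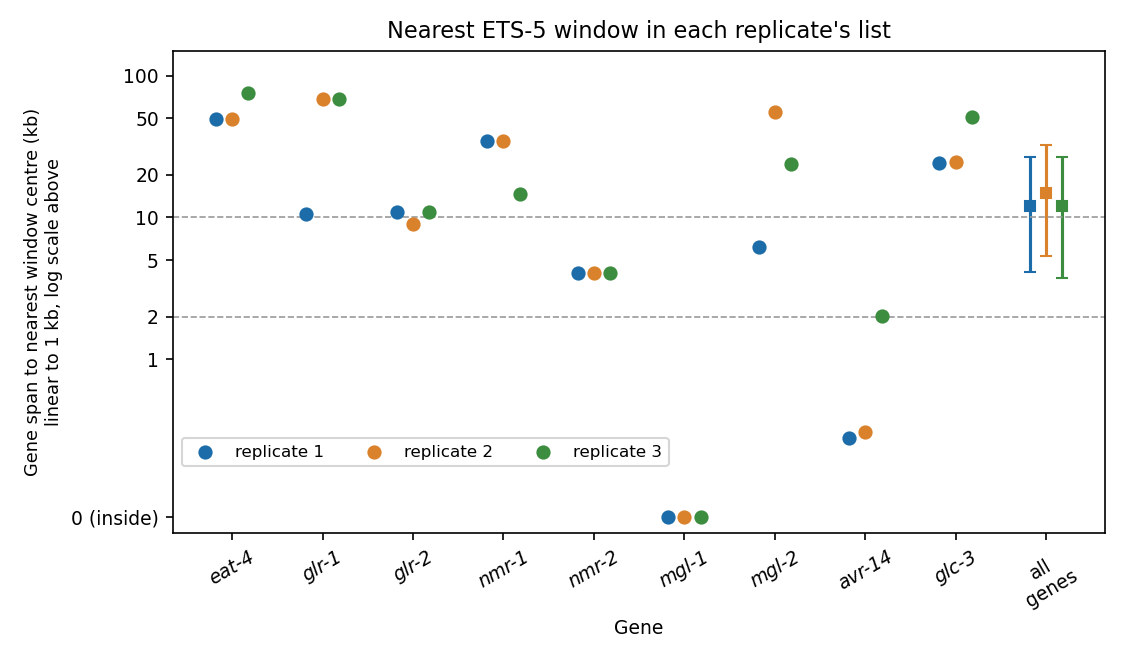
Distance in kb from each gene span to the nearest window centre (vertical axis, linear to 1 kb and log above, 0 for a window inside the gene), with 1 point per replicate, and for all protein-coding genes the median with bars from the lower to the upper quartile. Dashed lines mark 2 and 10 kb, and eat-4 lies at 49.31, 49.53 and 76.04 kb.

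Set in order by the nearest window of any list, the 9 genes ran from mgl-1 (inside) through avr-14 (0.5 kb), nmr-2 (4.04 kb), mgl-2 (6.22 kb), glr-2 (8.98 kb), glr-1 (10.58 kb), nmr-1 (14.58 kb) and glc-3 (24.24 kb) to eat-4 (49.31 kb). The first 3 places were the same in each list. The order of the rest was not stable between lists. In replicate 2, glr-1 at 68.95 kb and mgl-2 at 55.23 kb lay farther out than eat-4, and in replicates 1 and 3 eat-4 lay farthest. The median distance over the 9 genes was 10.58, 24.5 and 14.58 kb in replicates 1, 2 and 3. With the nearest window of any list it was 8.98 kb, against 8.22 kb over all protein-coding genes and 4.87 kb over those of the same span range.

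In all, 16 windows lay within 10000 bp of the 9 genes, 3 of them inside a gene. Joined wherever they shared 1 bp or more, they form 9 regions. Of these, 2 were held by all 3 lists, 3 by 2 lists and 4 by 1 list. Over all 5455 merged regions, 32.8% were held by all 3 lists, 25.4% by 2 and 41.9% by 1. Both regions held by all 3 lists lay nearer to another protein-coding gene than to the glutamate gene, fib-1 and ZC506.1. A member was the nearest protein-coding gene for 6 of the 16 windows, those inside mgl-1 and those beside avr-14, and none of these lay in a region that all 3 lists hold. Counting a window only for its nearest gene took the mean per gene and list from 0.593 to 0.222 for the 9 genes. For all protein-coding genes it took that mean from 0.696 to 0.174, so such a fall is not particular to the 9.

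The place of the 16 windows in their lists ran from 8.8% to 88.5% of the lines, with a median of 60.5%. The earliest were the window of replicate 2 at the lower side of mgl-1 and that of replicate 3 near nmr-2, both at 8.8%. The windows beside avr-14 stood at 77.1%, 70.6% and 76.5%. Restricted to the first 50% of each list, only mgl-1 kept a window within 10000 bp in all 3 replicates (background 15.2%), the one near ZC506.1. No gene of the 9 then had a window within 2000 bp in all 3 (background 4.47%), and with 9 genes these counts stood near the background.

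**Figure D4:**
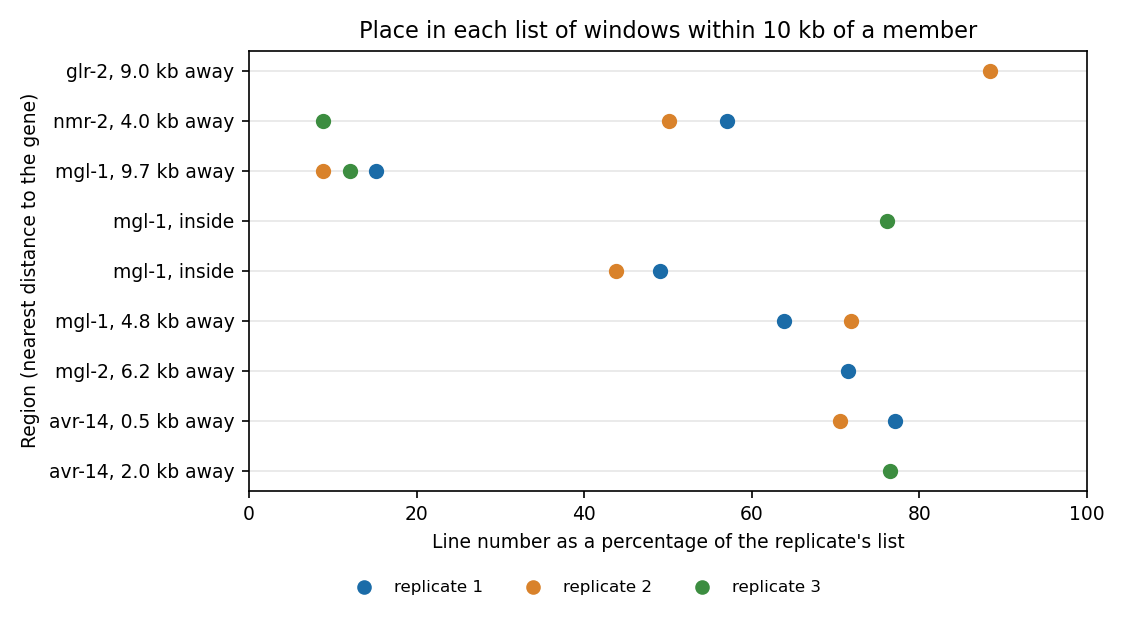
Place of each of the 16 windows within 10 kb of a member, as line number in percent of its replicate's list (horizontal axis), with 1 row per merged region labelled by gene and distance and 1 colour per replicate. The windows at the lower side of mgl-1 stand at 15.2%, 8.8% and 12.1% in replicates 1, 2 and 3, and those beside avr-14 all lie beyond 70%.

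A list of 31 further glutamate genes, of receptors, transporters, glutaminases and receptor trafficking proteins, was counted in the same way. Of these, 1 had a window inside the gene in all 3 replicates, 4 had one within 2000 bp and 10 had one within 10000 bp. These counts are 3.23%, 12.9% and 32.3%, against 11.1%, 11.1% and 33.3% of the 9 genes and 2.62%, 9.64% and 29.7% of all protein-coding genes. The share inside genes rests on 1 gene in either list. With a window in at least 1 replicate within 10000 bp as the measure, the share was 71.0% of the 31 and 55.6% of the 9, against 55.9% of all protein-coding genes. Among the AMPA and kainate class genes, glr-5 had a window of each list 1.96, 1.95 and 1.96 kb away in replicates 1, 2 and 3, just inside the 2000 bp limit, with glr-5 as nearest protein-coding gene. They stood late, at line 2555 of 3811, line 2897 of 2915 and line 1920 of 3697. The gene glr-8 had windows 1.03, 0.79 and 0.83 kb away, with cdf-1 as nearest protein-coding gene. Taking all 8 genes glr-1 to glr-8, none had a window inside it in any list (background 7.13% in at least 1 list). In all 3 lists, 2 had one within 2000 bp (background 9.64%) and 3 within 10000 bp (background 29.7%).

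Among all 6 glutamate-gated chloride channel genes of both lists, glc-4 alone had a window within 2000 bp in all 3 replicates (background 9.64%). Its windows there lay 1.39 kb away in replicate 1, 0.76 and 1.69 kb in replicate 2 and 0.64 kb in replicate 3. Those at 0.76 and 0.64 kb overlapped, as did those at 1.39 and 1.69 kb, so the 3 lists shared no region there. The third metabotropic receptor gene, mgl-3, had a window within 10000 bp in replicate 1 only.

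None of the 6 genes of plasma membrane glutamate transporters, which clear glutamate from outside the cell, had a window within 2000 bp in any list (background 23.8% in at least 1 list). In all 3 lists, glt-3, glt-6 and glt-7 had one within 10000 bp (background 29.7%). Near glt-3 the windows lay 2.07, 2.07 and 2.08 kb away, just beyond the limit, inside K08F4.5, at line 24 of 3811, line 53 of 2915 and line 922 of 3697. The genes vglu-2 and vglu-3, relatives of eat-4, shared a single window in replicate 1, 9.3 and 4.56 kb away. None of the 3 genes thus had one within 10000 bp in more than 1 list (background 42.1% in at least 2 lists).

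Among 9 genes for receptor auxiliary and trafficking proteins, kel-8, known for the turnover of GLR-1 receptors, had a window inside the gene in all 3 replicates (background 2.62%). As at mgl-1, a pair of windows from replicates 1 and 2 overlapped and that of replicate 3 lay apart, at 2672604 to 2673003 on chromosome V. The span of kel-8 is 17.05 kb, longer than that of any of the 9 genes described above. The gene stg-2, a relative of stargazin, had a region of all 3 lists 4.22, 4.24 and 4.19 kb away with stg-2 as the nearest protein-coding gene, at line 1205 of 3811, line 1423 of 2915 and line 2343 of 3697.

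By the number of windows within 10000 bp in each of the 3 lists, 12 of the 39 other glutamate genes had the same values as eat-4, namely 0 in each. Of these 12, 3 were members (glr-1, nmr-1 and glc-3) and 9 were from the further list, the first by alphabet being avr-15, cni-1 and glc-1. Over all protein-coding genes, 44.1% had no window within 10000 bp in any list, so the pattern of eat-4 by this measure is a common one.

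Genes of other transmitters were set beside the glutamate genes by count. Within 2000 bp in all 3 replicates, 1 of 7 acetylcholine genes had a window (ace-2, an acetylcholinesterase gene) and 2 of 9 GABA genes did (unc-47, of the vesicular GABA transporter, and gbb-2, of a GABA-B receptor subunit), against 1 of the 9 glutamate genes and 9.64% of all protein-coding genes. Within 10000 bp the counts were 1 of 7, 5 of 9 and 3 of 9, against 29.7% of all protein-coding genes, so the glutamate genes stood near the background at both distances. The transporter genes differed in the lists. At unc-47 windows lay 0.46 and 1.59 kb away in replicate 1, 1.72 kb in replicate 2 and 0.57 kb in replicate 3. Neither unc-17, of the vesicular acetylcholine transporter, nor eat-4 had one within 10000 bp. The nearest window of unc-17 lay 12.1 kb away in each list, just past that limit, against 49.31, 49.53 and 76.04 kb for eat-4. Of all protein-coding genes, 38.3% lay farther from a window of any list than unc-17 and 4.63% farther than eat-4. The 3 lists shared no region at unc-47, and the windows at 1.59 and 1.72 kb were nearer to epac-1. Those of ace-2 within 2000 bp were nearest to W01B11.1. The gene gbb-2 spans 17.82 kb, and its inside window of replicate 3 lay apart from those of replicates 1 and 2. No test was made of these differences, and neighbouring genes such as ace-3 and ace-4 share windows.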

How the data were processed

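Per the files themselves, the authors deposited headerless window lists that give only a chromosome, start and end. The submitters' processing notes name Bowtie2 and MACS2. Their settings, the control, the threshold and the build are not stated in the sources used here, and calling against input or against wild-type precipitate would give different lists. Per the labels' protocols, lysates were formaldehyde-fixed and sonicated. Starts were taken to count from 0 and are printed from 1.

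All symbols matched a single gene of a RefSeq table (assembly WBcel235). To check the fit of coordinates, windows were shifted. As deposited, 36.6% ± 2.59 (SD, n = 3) of window centres lay inside protein-coding genes. Shifting left or right gave 38.1% or 37.1% for 100 bp, 47.7% or 46.9% for 500 bp and 62.7% or 63.1% for 5000 bp. Shifts of 100 bp moved the mean share by less than the SD between lists and shifts of 500 bp by more. That SD measures how the lists differ, and the change within each list was not computed. The check thus did not settle whether the systems are offset by 100 bp, and distances carry that uncertainty.

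Members and lists were chosen with earlier results of these data known. With lists of a single group there was no contrast to test, so counts stand beside those of all protein-coding genes. All 9 members are named, and of the other lists the genes with a window of each replicate within 2000 bp. Genes of those lists named beyond that, such as glt-3, stg-2, mgl-3 and unc-17, were chosen after their values were seen, except avr-15, cni-1 and glc-1, the first by alphabet of 12 genes tied in likeness to eat-4. The distance of glc-1 to its nearest window was set beside that of eat-4 after it was seen. A planned count of ETS motifs needed sequence and was not run. In a test of the distance counting on simulated windows, 200 of 200 planted windows were recovered. Those 200 windows tested the counting by distance and not the assignment of a window among genes. Alternatives changed the overlap, distance, gene assignment, lines, offset and replicates used. Python 3.11.15, numpy 2.4.6 and pandas 2.3.3 were used.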

Additional observations from a re-analysis of the deposited data

How the results depend on the processing

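No paired analysis was possible because the lists used come from a single group. The count of 3 genes with a window within 10000 bp in all 3 replicates stayed within 1.5 times in 12 of 13 alternatives, and it was 1 when the first 50% of lines was used. The share of all protein-coding genes was 29.7% in the main setting and 15.2% in the first 50% of lines. The count of 1 inside the gene in all 3 replicates (mgl-1) fell to 0 when the windows of the 3 lists had to overlap by at least 1 bp, by at least 100 bp, or came from the first 50% of lines. The share of all protein-coding genes was 2.62% in the main setting and 2.56%, 2.53% and 1.23% under these settings. Under the same settings the count of 1 within 2000 bp also fell to 0, where all protein-coding genes gave 9.22%, 9.09% and 4.47%, against 9.64% in the main setting. The count within 2000 bp was 2, with avr-14, when any base of a window counted, with a window in at least 2 replicates, with windows shifted by 100 bp to the left and with a distance of 4000 bp. In that order, 10.2%, 15.5%, 9.65% and 14.9% of all protein-coding genes were counted. The count of 5 genes with a window within 10000 bp in at least 1 replicate was 2 with the nearest gene alone, 2 in the first 50% of lines and 3 at 5000 bp. The share of all protein-coding genes fell from 55.9% to 18.3%, 39.0% and 37.8% under these settings. The mean of 0.593 windows per gene was 0.222 with the nearest gene alone and 0.222 in the first 50% of lines. It was 0.407 at 5000 bp and 0.889 at 20000 bp. For all protein-coding genes the mean was 0.696 in the main setting and 0.174, 0.356, 0.382 and 1.35 under these settings. The members thus stood below all protein-coding genes in the main setting, in the first 50% of lines and at 20000 bp. With the nearest gene alone and at 5000 bp the members stood above them. Fewer lines, a shorter distance or a single gene per window lower the counts and means by construction. Leaving out each replicate in turn gave 1 to 1 inside the gene, 1 to 2 within 2000 bp (2 without replicate 3), 3 to 3 within 10000 bp, 4 to 5 with at least 1 replicate, and means of 0.556 to 0.667. In no alternative up to 20000 bp did eat-4 or glc-3 have a window. Without read counts, a site below the authors' threshold cannot be told from a site with no signal.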
